A study of Mus musculus with 6 samples.

Results

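Islet capillaries were followed through 10 genes of the vascular endothelium, the cell layer that lines blood vessels: the receptors Kdr, Flt1, Tek and Tie1, the junction genes Pecam1 and Cdh5, the co-receptor Eng, and Plvap, Emcn and Esm1. They were chosen by name as markers of islet endothelium, with Vegfa, a ligand made by endocrine cells, left out. All 10 were found among the 34745 genes of the deposited table of FPKM, fragments per kilobase of gene and per 1000000 fragments. The threshold for testing, at least 1 FPKM in at least 2 libraries, was met by 13233 genes and by 8 of the 10 members; Tek and Tie1 did not reach it.

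The RNA came from isolated islets of C57BL/6 mice aged 8 weeks, in 3 groups of 2 libraries. KO+DNMT3A was labelled as βRapKO with expression of Dnmt3a, a de novo DNA methyltransferase, and the design text adds the prefix Lv to that gene. KO was labelled βRapKO, a beta cell knockout of Rptor, whose product Raptor is part of mTORC1, a kinase complex that drives growth. WT was labelled wild type. The deposited column names of KO and WT carry the word GFP, which the labels do not explain. By their labels both KO+DNMT3A and KO thus carried the beta cell deletion. The promoter behind the deletion and the number of mice behind a library are not given in the sources used here, so p-values measure the spread between these samples, which may be technical.

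Islets are served by a dense bed of fenestrated capillaries, whose endothelium has pores closed by thin diaphragms. Beta cells secrete VEGF-A, which signals through the receptor VEGFR2 (Kdr) on these capillaries and is also bound by VEGFR1 (Flt1), a receptor that limits the amount of free ligand. Angiopoietins act on TIE2 (Tek), with TIE1 (Tie1) as its partner, and steady the vessel wall. Circulating BMP9 acts through ALK1 with endoglin (Eng) as co-receptor. PECAM-1 (Pecam1) and VE-cadherin (Cdh5) hold endothelial cells together.

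The libraries were shallow and unequal, and most members rested on few fragments in each. Inferred library sizes were 244735 to 1920390 fragments, and 1 fragment on a transcript of 2 kb was worth 0.26 FPKM in the largest library, KO+DNMT3A replicate 1, and 2.04 FPKM in the smallest, WT replicate 1. KO replicate 2 and WT replicate 1 stood apart: the insulin genes Ins1 and Ins2 took 0.109% and 0.17% of their summed FPKM, against 16.5% to 30.5% in the other 4 libraries, and mitochondrially encoded genes took 50.9% and 44.8%, against 16.5% to 26.5%. Both are called insulin-poor here. Fold changes without both are given for each tested member and, since they leave 1 library labelled KO and 1 labelled WT, carry no p. Rptor was 0.714 and 1.93 FPKM in the KO+DNMT3A-labelled pair, 0.378 and 1.51 FPKM in the KO-labelled pair, and 0.8 and 1.06 FPKM in the WT-labelled pair. Dnmt3a was 3.62 and 3.8 FPKM in the KO+DNMT3A-labelled pair, 3.19 and 2.5 FPKM in the KO-labelled pair, and 2.94 and 4.43 FPKM in the WT-labelled pair. Rptor in KO replicate 2 was above both WT values. Its exact counting interval of 0.965 to 2.24 FPKM overlapped those of WT replicate 1 (0.218 to 2.05) and WT replicate 2 (0.654 to 1.61). KO replicate 2 was insulin-poor, and what its beta cells expressed was not tested. Of the libraries labelled with the deletion, KO replicate 1 held the lowest Rptor of all and KO+DNMT3A replicate 2 the highest. Rptor thus did not settle whether the label holds. Dnmt3a was higher in both KO+DNMT3A libraries than in both KO libraries, as 17.2% of all genes tested were, and it lay within the range of WT; limma called neither gene. The groups are therefore named by their labels only, and every direction below is between libraries so labelled.

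Endothelial RNA was present in every library. Between 8 and 10 of the 10 members were above 0 in each, and of the 20 other endothelial junction and surface genes examined, 16 to 18 were above 0 in each library. Claudin-5 (Cldn5), a tight junction protein of endothelium, was 3.68 and 1.9 FPKM in the KO+DNMT3A-labelled pair, 4.46 and 1.81 FPKM in the KO-labelled pair, and 23.1 and 4.36 FPKM in the WT-labelled pair. The leukocyte adhesion genes Sele and Selp, which endothelium carries when inflamed, were listed at 0 throughout. So were the haemoglobin genes Hba-a1, Hba-a2, Hbb-bs and Hbb-bt, which mark red cells carried along in vessels. In bulk RNA, fewer endothelial cells and less RNA per endothelial cell cannot be told apart.

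Kdr encodes VEGFR2, the main signalling receptor for VEGF-A (ENSMUSG00000062960, chromosome 5, 75932827 to 75978458, minus strand, GRCm38). It was 1.35 and 0.557 FPKM in the KO+DNMT3A-labelled pair, 1.16 and 1.86 FPKM in the KO-labelled pair, and 4.66 and 0.959 FPKM in the WT-labelled pair. The libraries labelled WT were the highest and the second lowest of the 6, so the groups overlapped in each comparison. These values rested on 6 to 25 fragments a library. By limma on log2(FPKM + 1), the difference was -0.38 ± 0.65 for KO+DNMT3A against KO, -0.42 ± 0.65 for KO against WT and -0.80 ± 0.65 for KO+DNMT3A against WT (log2 fold change ± SE). Without both insulin-poor libraries these came to -0.18, 0.14 and -0.03, so that the sign of KO against WT turned.

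Flt1 encodes VEGFR1, the decoy receptor of the same ligand (ENSMUSG00000029648, chromosome 5, 147561604 to 147726011, minus strand). It was 0.76 and 1.18 FPKM in the KO+DNMT3A-labelled pair, 1.7 and 1.25 FPKM in the KO-labelled pair, and 2.84 and 0.428 FPKM in the WT-labelled pair. Both values labelled KO+DNMT3A lay below both values labelled KO, one of them by a small margin. By limma the difference was -0.33 ± 0.62 for KO+DNMT3A against KO, 0.07 ± 0.62 for KO against WT and -0.26 ± 0.62 for KO+DNMT3A against WT. The 2 libraries labelled WT held the highest and the lowest value of all 6, on 10 and 6 fragments. Leaving out the insulin-poor pair gave -0.47, 0.92 and 0.46 in the same 3 comparisons, with the sign of KO+DNMT3A against WT turned.

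Tek and Tie1 lay at the limit of detection. Tek, the angiopoietin receptor TIE2 (ENSMUSG00000006386, chromosome 4, 94739289 to 94874976, plus strand), was listed at 0 in both KO+DNMT3A-labelled libraries. It was 0.278 and 0 FPKM in the KO-labelled pair and 0 and 0.408 FPKM in the WT-labelled pair. A count of 0 allowed up to 3 fragments, a 1-sided 95% limit that lies below the upper end of the 2-sided counting intervals. For Tek this limit was 0.31 and 0.533 FPKM in the KO+DNMT3A-labelled pair, 0.763 FPKM in KO replicate 2 and 2.43 FPKM in WT replicate 1. Both nonzero values of Tek lay below that limit in WT replicate 1. Tie1, its partner receptor (ENSMUSG00000033191, chromosome 4, 118471191 to 118490061, minus strand), was 0.517 and 0.74 FPKM in the KO+DNMT3A-labelled pair, 1.62 and 0 FPKM in the KO-labelled pair, and 0 and 0.34 FPKM in the WT-labelled pair. Its zeros were those of the 2 insulin-poor libraries, where 3 fragments were worth 0.636 FPKM (KO replicate 2) and 2.03 FPKM (WT replicate 1). The value of 1.62 FPKM rested on 14 fragments. Within KO the 95% counting intervals of Tie1 did not overlap, at 0.888 to 2.72 FPKM in replicate 1 and 0 to 0.782 FPKM in replicate 2. Between groups the intervals of Tie1 overlapped for each pair of libraries, as did those of Tek, so no difference between groups was detectable at this depth in either receptor.

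Pecam1 encodes the adhesion protein CD31 of endothelial borders (ENSMUSG00000020717, chromosome 11, 106654217 to 106750628, minus strand). It was 1.39 and 1.4 FPKM in the KO+DNMT3A-labelled pair, 1.8 and 0.714 FPKM in the KO-labelled pair, and 4.1 and 2.29 FPKM in the WT-labelled pair. Both libraries labelled WT lay above all 4 others, which held for no other member. Limma put the log2 fold change at 0.13 ± 0.55 for KO+DNMT3A against KO, -0.90 ± 0.55 for KO against WT and -0.77 ± 0.55 for KO+DNMT3A against WT, with limma adjusted p of 1, 1 and 0.997. The upper of these WT values came from 9 fragments of an insulin-poor library, with a 95% counting interval of 1.87 to 7.78 FPKM. Without both insulin-poor libraries, which leaves KO replicate 1 and WT replicate 2 beside both KO+DNMT3A libraries, the differences were -0.22, -0.23 and -0.46, the first with its sign turned.

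Cdh5 encodes VE-cadherin, the cadherin of endothelial adherens junctions (ENSMUSG00000031871, chromosome 8, 104101625 to 104144511, plus strand). It was 2.61 and 2.92 FPKM in the KO+DNMT3A-labelled pair, 3.34 and 1.29 FPKM in the KO-labelled pair, and 2.05 and 3.35 FPKM in the WT-labelled pair. The group means were 2.77 ± 0.216, 2.31 ± 1.45 and 2.7 ± 0.919 FPKM in that order (SD, n = 2 each). Its 2 lowest values were those of the insulin-poor libraries, on 4 and 2 fragments, and the 2 fragments of WT replicate 1 allowed 0.248 to 7.41 FPKM, a range that holds all the other values. The limma estimate was 0.26 ± 0.56 for KO+DNMT3A against KO, -0.21 ± 0.56 for KO against WT and 0.05 ± 0.56 for KO+DNMT3A against WT. All 3 groups overlapped. With the insulin-poor pair left out it was -0.21, -0.002 and -0.21, and both differences from KO+DNMT3A turned sign.

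Eng encodes endoglin, the co-receptor for BMP9 (ENSMUSG00000026814, chromosome 2, 32646595 to 32682669, plus strand), and was the most deeply counted member, with 326 fragments over the 6 libraries. It was 8.55 and 3.55 FPKM in the KO+DNMT3A-labelled pair, 6.91 and 9.99 FPKM in the KO-labelled pair, and 12.9 and 3.51 FPKM in the WT-labelled pair. The 95% counting intervals did not overlap within KO+DNMT3A (7.09 to 10.2 and 2.38 to 5.1 FPKM) or within WT (8.15 to 19.3 and 2.27 to 5.18 FPKM). Replicates of one group thus differed by more than counting error. The log2 fold change was -0.50 ± 0.71 for KO+DNMT3A against KO, 0.24 ± 0.71 for KO against WT and -0.26 ± 0.71 for KO+DNMT3A against WT. Without the insulin-poor pair it was -0.26, 0.81 and 0.55, and KO+DNMT3A against WT thus changed sign.

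Plvap encodes the protein of the diaphragms that close fenestrae, and so marks the fenestrated capillary bed that islets have (ENSMUSG00000034845, chromosome 8, 71497765 to 71511752, minus strand). It was 8.01 and 5.77 FPKM in the KO+DNMT3A-labelled pair, 22.3 and 10.8 FPKM in the KO-labelled pair, and 6.08 and 5.1 FPKM in the WT-labelled pair. The libraries labelled KO were the 2 highest of the 6, and those labelled KO+DNMT3A and WT overlapped each other. Mean levels were 6.89 ± 1.58 FPKM for KO+DNMT3A, 16.5 ± 8.11 FPKM for KO and 5.59 ± 0.698 FPKM for WT (SD, n = 2 each). By limma the difference was -1.09 for KO+DNMT3A against KO (SE 0.57, 95% interval -2.40 to 0.23, unadjusted p = 0.093, limma adjusted p = 1). For KO against WT it was 1.33 (2.52-fold in FPKM + 1, SE 0.57, 95% interval 0.02 to 2.65, unadjusted p = 0.0473, limma adjusted p = 1). For KO+DNMT3A against WT it was 0.25 ± 0.57 (limma adjusted p = 0.997). The first 2 of these comparisons share the KO libraries, so both rest on the same pair of KO values.

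KO replicate 1 carried much of that Plvap difference. Its 64 fragments gave a 95% counting interval of 17.2 to 28.4 FPKM, which did not overlap the interval of any library outside the KO group except WT replicate 1, where 3 fragments allowed 1.25 to 17.8 FPKM. Without KO replicate 1, which leaves the insulin-poor KO library alone, the limma log2 fold change was -0.60 for KO+DNMT3A against KO and 0.85 for KO against WT. Without KO replicate 2 it was -1.57 and 1.82, and without both insulin-poor libraries -1.57 and 1.93. Each of these fits rests on a single KO library, so none is a test of replicated groups. Its direction in these 2 comparisons was the same under each of the alternatives run.

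Emcn encodes endomucin, a surface sialomucin of capillary and venous endothelium (ENSMUSG00000054690, chromosome 3, 137341067 to 137432185, plus strand). It was 2.47 and 1.64 FPKM in the KO+DNMT3A-labelled pair, 5.69 and 1.57 FPKM in the KO-labelled pair, and 7.51 and 0.786 FPKM in the WT-labelled pair. It had the widest gap between replicates of WT among the members on the log2(FPKM + 1) scale, and its SE of 0.84 was the largest. Limma put the log2 fold change at -0.45 for KO+DNMT3A against KO, 0.09 for KO against WT and -0.36 for KO+DNMT3A against WT. Without both insulin-poor libraries these were -1.14, 1.91 and 0.76, the second between single libraries of KO and WT, and the sign of the third turned.

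Esm1 encodes endocan, a proteoglycan secreted by endothelial cells in which VEGF signalling is active (ENSMUSG00000042379, chromosome 13, 113209659 to 113218098, plus strand). It was 12.2 and 7.68 FPKM in the KO+DNMT3A-labelled pair, 18.1 and 7.33 FPKM in the KO-labelled pair, and 11.7 and 12.2 FPKM in the WT-labelled pair. Group means were 9.92 ± 3.17, 12.7 ± 7.58 and 12 ± 0.391 FPKM (SD, n = 2 each). Both values labelled WT lay between the 2 values labelled KO. The limma estimate was -0.24, -0.04 and -0.28 for KO+DNMT3A against KO, KO against WT and KO+DNMT3A against WT, each with an SE of 0.61. Without the insulin-poor pair these were -0.83, 0.53 and -0.31, so that KO against WT changed sign.

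**Figure D1:**
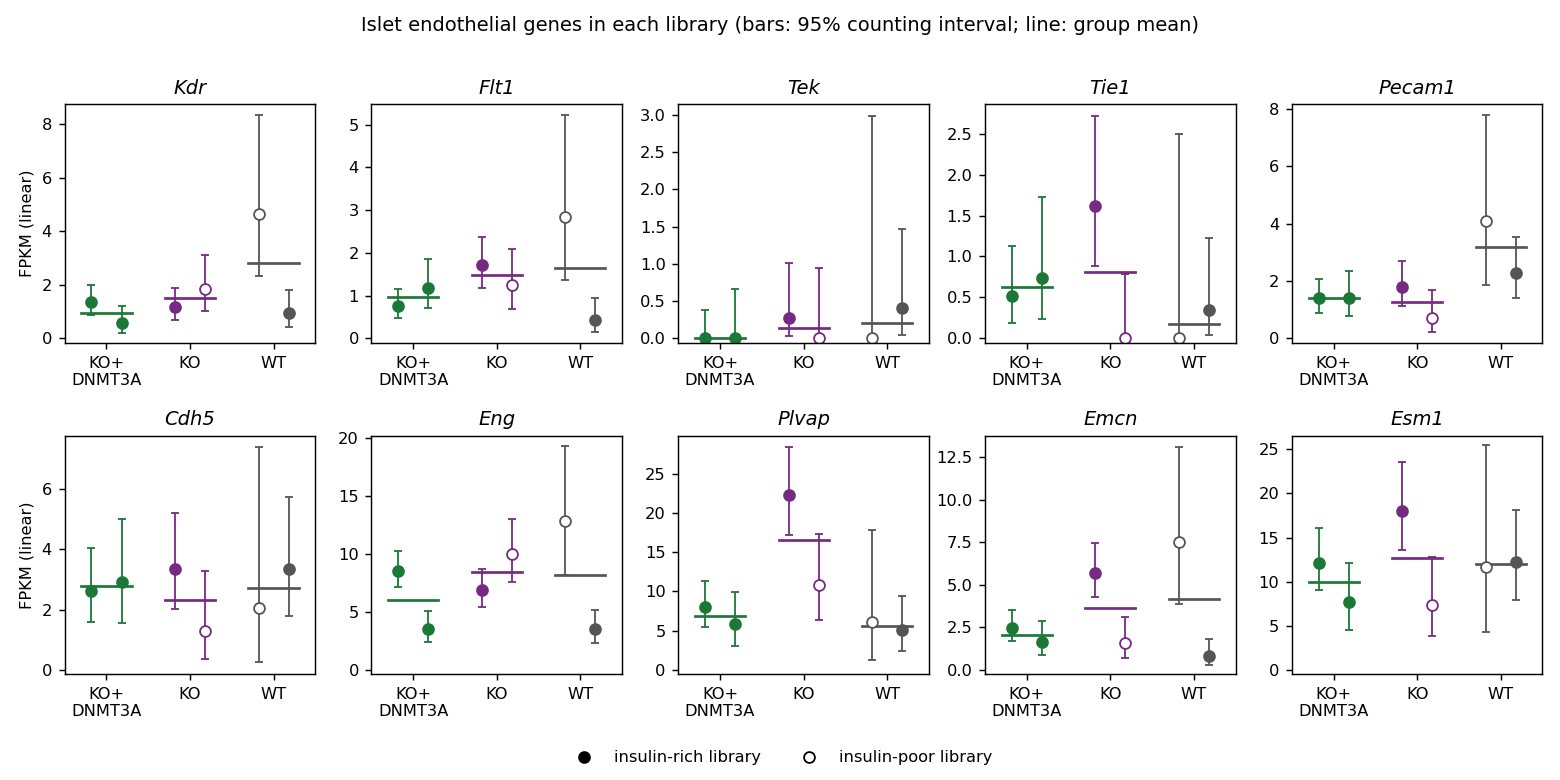
FPKM of each member (linear vertical axis, one panel a gene) in the 2 libraries of KO+DNMT3A, KO and WT, with replicate 1 left of replicate 2. Bars are exact 95% Poisson intervals that cover counting error only, lines are group means, and open circles are the 2 insulin-poor libraries; Plvap is highest in both KO libraries, and Kdr, Flt1, Pecam1, Eng and Emcn are highest in WT replicate 1.

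Summed over the 10 members, the level overlapped between every pair of groups and differed between replicates of each group. The sum was 37.8 and 25.4 FPKM in the KO+DNMT3A-labelled pair, 62.8 and 34.8 FPKM in the KO-labelled pair, and 51.8 and 29.4 FPKM in the WT-labelled pair. KO+DNMT3A averaged 31.6 ± 8.76 FPKM, KO 48.8 ± 19.8 FPKM and WT 40.6 ± 15.8 FPKM (SD, n = 2 each), and an exact two-sided permutation test of 2 against 2 cannot give a p below 0.333. In fragments per 1000000, which weights each member by its reads, the members held 170 (95% Poisson interval 152 to 190) and 115 (96.4 to 137) in KO+DNMT3A, 247 (222 to 274) and 168 (140 to 199) in KO, and 311 (245 to 389) and 120 (99.4 to 144) in WT. In each of the 3 groups the intervals of the 2 replicates did not overlap. PCR copies are not independent molecules, so these intervals cover counting error only.

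**Figure D2:**
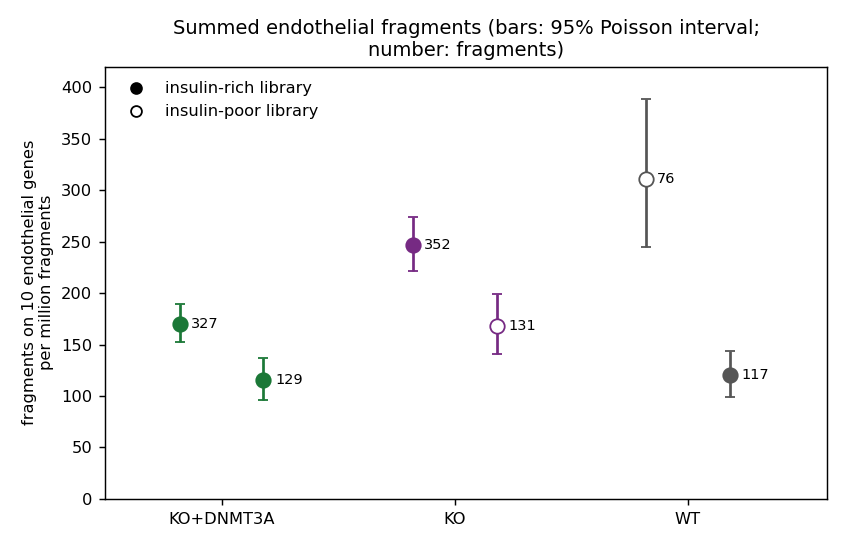
Fragments on the 10 endothelial genes per 1000000 inferred fragments (linear vertical axis from 0) in each library of KO+DNMT3A, KO and WT. Bars are exact 95% Poisson intervals for counting error, the number beside each point is the summed fragments, and open circles are insulin-poor libraries; the 2 replicates of each group are separated by more than their bars, with 311 and 120 per 1000000 in WT.

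The libraries that led the sum led it with different genes. WT replicate 1 was the highest library for 5 members (Kdr, Flt1, Pecam1, Eng and Emcn), KO replicate 1 for 3 (Tie1, Plvap and Esm1), and WT replicate 2 for 2 (Tek and Cdh5). Eng took 36.7% and 22.5% of all member fragments in KO+DNMT3A, 20.5% and 43.5% in KO, and 30.3% and 21.4% in WT. Its share in KO replicate 1 (exact 95% binomial interval 16.4% to 25.1%) did not overlap its share in KO replicate 2 (34.9% to 52.4%). Plvap took 9.48% and 10.1% of member fragments in KO+DNMT3A, 18.2% and 13% in KO, and 3.95% and 8.55% in WT. For Eng the make-up of the endothelial RNA thus differed between the 2 KO libraries by more than counting error.

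Across the 6 libraries, pairs of members ran from closely alike to opposite. On the log2(FPKM + 1) scale Pearson's r was 0.88 for Flt1 with Emcn, 0.86 for Kdr with Eng and 0.75 for Tie1 with Cdh5. It was -0.69 for Cdh5 with Eng and -0.62 for Kdr with Tie1. These values describe 6 points that share library depth and the 2 insulin-poor libraries, and no p is attached to them. Kdr, Flt1, Eng and Emcn, each highest in the insulin-poor WT library, formed pairs with r of 0.66 to 0.88. Pecam1 was highest in that library too, but its r was 0.16 with Eng, 0.46 with Flt1, 0.56 with Emcn and 0.57 with Kdr.

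Flt1 and Emcn, the pair most alike, are shown by the 250 bases before their RefSeq start (GRCm38.p6), 5′ to 3′ on the strand of each gene. Capitals mark the letters GGAA, or TTCC on the opposite strand, the core recognised by ETS transcription factors, which endothelial genes are known to use. The Flt1 window is chr5:147726012-147726261 on the minus strand, and the Emcn window is chr3:137340828-137341077 on the plus strand.
Flt1: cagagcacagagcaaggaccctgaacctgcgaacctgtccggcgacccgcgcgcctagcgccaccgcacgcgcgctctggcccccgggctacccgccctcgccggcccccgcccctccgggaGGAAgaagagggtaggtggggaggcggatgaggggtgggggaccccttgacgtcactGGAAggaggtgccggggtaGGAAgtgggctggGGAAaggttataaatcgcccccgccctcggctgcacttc
Emcn: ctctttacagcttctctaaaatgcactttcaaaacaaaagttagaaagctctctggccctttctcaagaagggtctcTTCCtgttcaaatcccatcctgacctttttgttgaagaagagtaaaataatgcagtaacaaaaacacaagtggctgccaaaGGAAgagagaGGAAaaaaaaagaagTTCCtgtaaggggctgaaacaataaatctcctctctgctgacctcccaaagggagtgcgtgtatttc
Each window held 4 copies of GGAA and 2 of the longer AGGAAG, counted on both strands, the second containing the first. GGAA was in all 7 members with a promoter in the table and in 93.4% of the 32851 promoters of the same length, so its presence sets no member apart. AGGAAG was in 4 of the 7 members and in 29.5% of all promoters. AGATAA, the letters of GATA factors, was in 0 of the 7 and in 9.99% of all promoters. A match of letters is a description and not a binding site.

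The order of the members by level was Esm1 (11.5 ± 3.9 FPKM, mean ± SD of 6 libraries), Plvap (9.67 ± 6.51), Eng (7.56 ± 3.68), Emcn (3.28 ± 2.69), Cdh5 (2.59 ± 0.806), Pecam1 (1.95 ± 1.18), Kdr (1.76 ± 1.49), Flt1 (1.36 ± 0.846), Tie1 (0.537 ± 0.606) and Tek (0.114 ± 0.182). Each gene overlapped its neighbours in this order over the 6 libraries. Wider gaps held in FPKM: the lowest value of Esm1 (7.33 FPKM) and of Plvap (5.1 FPKM) lay above the highest of Kdr (4.66 FPKM), Pecam1 (4.1 FPKM) and Cdh5 (3.35 FPKM).

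That order depends on the gene length behind the FPKM. The length that turned all 6 values of a gene into whole fragments was 2097 bases for Esm1, equal to its longest GENCODE transcript, and 3986 bases for Cdh5 against a longest transcript of 3995. For Pecam1 it was 8969 bases, 2.61 times its longest transcript of 3441 bases, for Eng 7310 against 3422 and for Flt1 14396 against 6895. All annotated exons of a gene together covered 6228 bases for Pecam1, 4048 for Eng and 13504 for Flt1, each below the length found. How the authors set these lengths is not given in the sources used here, and which length suits the fragments was not tested. Per kilobase of longest transcript, Eng averaged 16.2, ahead of Esm1 with 11.5 and Plvap with 9.81, and Pecam1 averaged 5.08, ahead of Cdh5 with 2.59. On this scale the highest values of Pecam1 (10.7) and Kdr (7.59) passed the lowest of Esm1 (7.33) and Plvap (5.17), so those gaps were lost, while the highest value of Cdh5 (3.34) stayed below both. Fold changes of 1 gene between libraries share its length, but the pseudocount of 1 FPKM then weighs more on a gene whose FPKM the length lowered.

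**Figure D3:**
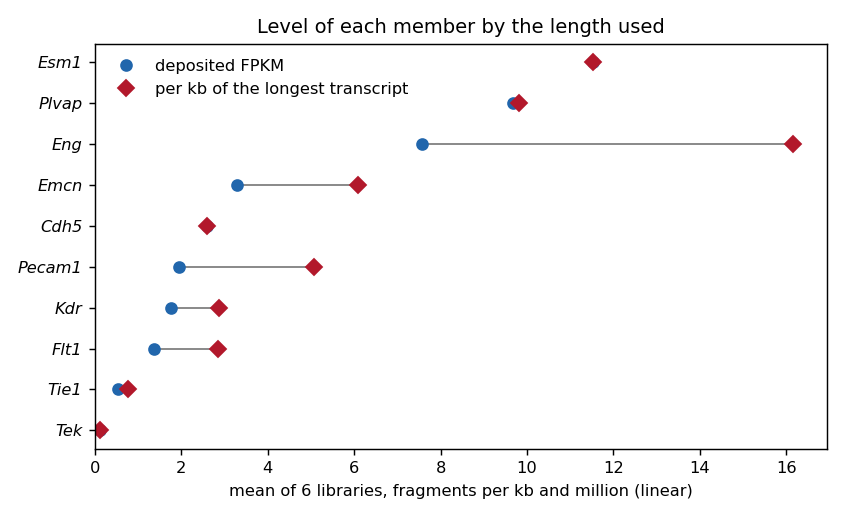
Mean level of each member over the 6 libraries, as fragments per kilobase per 1000000 fragments (linear horizontal axis), as deposited (circles) and per kilobase of the longest GENCODE transcript (diamonds). Eng moves to 16.2 from a deposited mean of 7.56 FPKM and Pecam1 to 5.08 from 1.95 FPKM, whereas Esm1, Plvap, Cdh5 and Tek hardly move.

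KO+DNMT3A was compared with KO to ask what Dnmt3a expression changed in βRapKO islets. By limma with Benjamini-Hochberg adjustment over 13233 genes, 0 of the 8 tested members passed an adjusted p of 0.05, and neither did any other gene (0% called). A limma voom fit of the recovered fragments also called 0 genes in this and the other 2 comparisons. At an unadjusted p under 0.05 there were 0 members, against 1.11% of all genes. With no effect, that threshold alone would give 661.65 of the 13233 genes. Here 147 genes passed it, with 240 in KO against WT and 379 in KO+DNMT3A against WT. Small p-values were thus scarce throughout, and a lack of calls is no proof of equal levels. Of the 8 members, 6 had a log2 fold change below 0 and 2 above, with a median of -0.36, beside 0.19 for all genes tested, and 7 lay below the all-gene median. Groups did not overlap for 2 members, both lower in KO+DNMT3A (Flt1 and Plvap), and for 0 higher, where 5.43% of all genes were lower and 17.2% higher without overlap. The median came to 0.02 without KO replicate 1 and -0.02 without KO+DNMT3A replicate 2.

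KO was compared with WT to ask what the beta cell deletion changed. Again limma called 0 of 8 members and 0% of all genes. Plvap alone had an unadjusted p under 0.05, as had 1.81% of all genes. The members divided evenly, 4 above and 4 below 0, and their median log2 fold change was 0.02, beside 0.03 for all genes. Without overlap, 1 member was higher in KO (Plvap) and 1 was lower (Pecam1), where 9.36% of all genes were higher and 10.5% lower. This median turned on the libraries kept: it was 0.67 without both insulin-poor libraries, 0.57 without WT replicate 1 and -0.61 without WT replicate 2.

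KO+DNMT3A against WT sets βRapKO islets with Dnmt3a expression beside islets labelled wild type. In this comparison limma called 0 of 8 members and 0% of all genes, and 0 members had an unadjusted p under 0.05, against 2.86% of all genes. As against KO, 6 members were below 0 and 2 above, with a median of -0.27 beside 0.23 for all genes, and 7 lay below the all-gene median. The 2 comparisons share the KO+DNMT3A libraries. Pecam1 was the 1 member lower without overlap and 0 were higher, where 7.87% of all genes were lower and 19.2% higher. Without WT replicate 1 the median was 0.16, and without WT replicate 2 it was -1.02. With median scaling of the libraries the all-gene medians of KO+DNMT3A against KO and against WT moved to 0.02 and 0.12, and the member medians to -0.48 and -0.40.

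**Figure D4:**
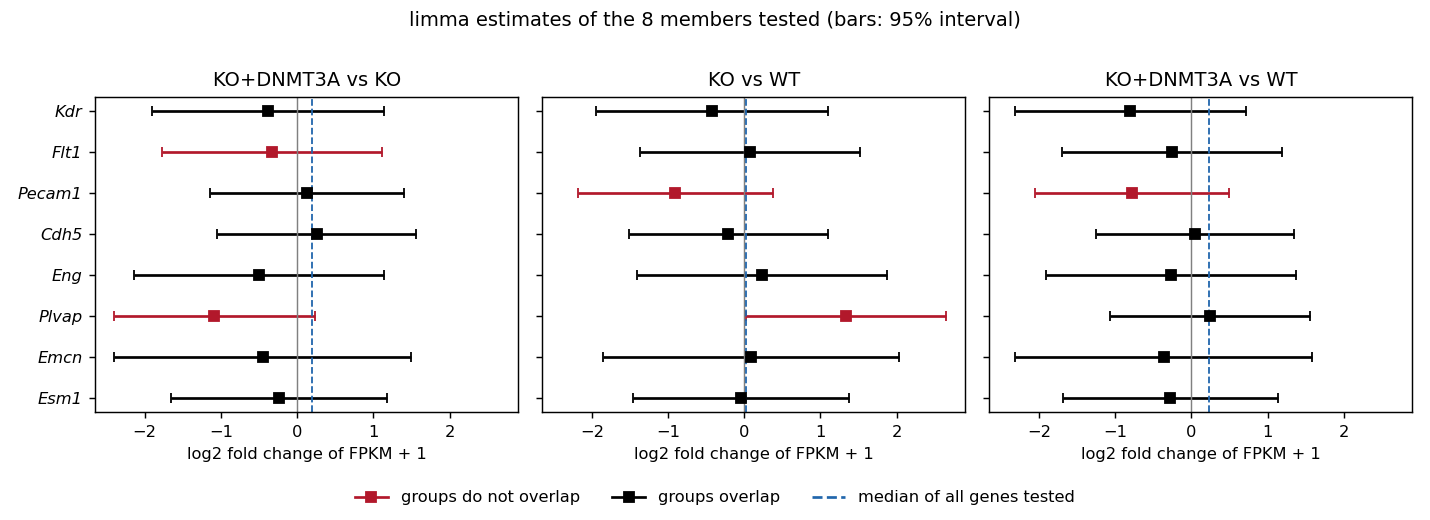
Log2 fold change of FPKM + 1 (linear horizontal axis) of the 8 members tested by limma in KO+DNMT3A against KO, KO against WT, and KO+DNMT3A against WT, with 95% intervals. Red marks members whose groups do not overlap and the dashed line is the median of all genes tested; every interval spans 0 except that of Plvap in KO against WT, which runs from 0.02 to 2.65.

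Other genes of the same pathways ran from 0 in every library to levels above those of the members, and limma called none of them in any comparison. Of 14 VEGF and angiopoietin ligands, co-receptors and related genes, 8 met the threshold. Vegfa, the ligand of Kdr and Flt1, was 7.97 and 26.7 FPKM in the KO+DNMT3A-labelled pair, 8.58 and 13.3 FPKM in the KO-labelled pair, and 17.3 and 15.6 FPKM in the WT-labelled pair. Both KO values lay below both WT values, as for 10.5% of all genes tested, with a log2 fold change of -0.57 ± 0.68 and a limma adjusted p of 1. Pgf, a ligand of VEGFR1, was 7.9 and 7.35 FPKM in the KO+DNMT3A-labelled pair, 12.4 and 18.6 FPKM in the KO-labelled pair, and 0 and 12.3 FPKM in the WT-labelled pair. Like Plvap, it was highest in both KO libraries, though its higher WT value lay close to the lower KO value. Without overlap, 9.36% of all genes tested were higher in KO than in WT, and 5.43% lower in KO+DNMT3A than in KO. The Pgf value of 0 came from WT replicate 1, where 1 fragment on a transcript of 2 kb was worth 2.04 FPKM. Nrp1, the VEGF co-receptor neuropilin-1, was 9.26 and 6.97 FPKM in the KO+DNMT3A-labelled pair, 9.14 and 17.8 FPKM in the KO-labelled pair, and 15.9 and 6.08 FPKM in the WT-labelled pair, so its groups overlapped. Angpt1, the main activating ligand of TIE2, was listed at 0 throughout, and Angpt2, its context-dependent antagonist made by endothelium, was 1.78 and 0.704 FPKM in the KO+DNMT3A-labelled pair, 2.94 and 1.01 FPKM in the KO-labelled pair, and 2.14 and 0.808 FPKM in the WT-labelled pair.

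Among 12 ligands, partner receptors and targets of endoglin, 10 met the threshold. Gdf2 and Bmp10, which encode the circulating ligands BMP9 and BMP10, were listed at 0 throughout. Acvrl1, the partner receptor ALK1, was 1.08 and 0.429 FPKM in the KO+DNMT3A-labelled pair, 0.898 and 1.64 FPKM in the KO-labelled pair, and 0 and 0.822 FPKM in the WT-labelled pair. Id1, a target gene of this pathway that many cell types use, was 27.1 and 10.3 FPKM in the KO+DNMT3A-labelled pair, 12.7 and 27.5 FPKM in the KO-labelled pair, and 46.8 and 13.2 FPKM in the WT-labelled pair. Id3, a related target, was the highest of these genes, with 45 and 23 FPKM in the KO+DNMT3A-labelled pair, 45 and 37.4 FPKM in the KO-labelled pair, and 62.4 and 45.7 FPKM in the WT-labelled pair. WT replicate 1 was the highest library for Id1 and Id3, as for Eng. The median log2 fold change of the 10 was -0.06 for KO+DNMT3A against KO, -0.37 for KO against WT and -0.04 for KO+DNMT3A against WT, beside all-gene medians of 0.19, 0.03 and 0.23.

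Of the 20 other junction and surface genes, 16 met the threshold, and 12 of the 20 were highest in WT replicate 1. Their median log2 fold change was -0.05 for KO+DNMT3A against KO, -0.33 for KO against WT and -0.42 for KO+DNMT3A against WT. S1pr1, the sphingosine-1-phosphate receptor that tightens endothelial junctions, was 3.59 and 1.18 FPKM in the KO+DNMT3A-labelled pair, 4.37 and 2.94 FPKM in the KO-labelled pair, and 9.39 and 5.06 FPKM in the WT-labelled pair. Like Pecam1, it was highest in both WT libraries, with a log2 fold change of -1.33 ± 0.60 for KO+DNMT3A against WT (limma unadjusted p = 0.0598, limma adjusted p = 0.997). Without overlap, 7.87% of all genes tested were lower in KO+DNMT3A than in WT, and 10.5% lower in KO than in WT. Only 6 of 13 endothelial transcription factor and Nos3 genes met the threshold. Sox18, a factor of vascular development, was 2.89 and 2.76 FPKM in the KO+DNMT3A-labelled pair, 3.9 and 1.58 FPKM in the KO-labelled pair, and 10.1 and 2.54 FPKM in the WT-labelled pair. Of 9 vascular Notch genes 6 were tested, with medians of 0.21, -0.18 and -0.22 in the same 3 comparisons.

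Markers of other cell types also differed between the libraries, and limma called none of them. The mural cells that wrap capillaries were followed by 11 genes listed for pericytes and smooth muscle. Their summed level was 78.6 and 35.6 FPKM in the KO+DNMT3A pair, 108 and 68 FPKM in the KO pair, and 121 and 62.9 FPKM in the WT pair. It ranked KO replicate 1 and WT replicate 1 above the rest, as the members did. The list also held Pdgfb, a ligand and not a mural marker, at 1.84 to 8.4 FPKM. Rgs5, a pericyte marker, was 26.6 and 8.67 FPKM in the KO+DNMT3A-labelled pair, 56 and 21.2 FPKM in the KO-labelled pair, and 9.67 and 20.6 FPKM in the WT-labelled pair. Both KO values lay above both WT values, as for Plvap and for 9.36% of all genes tested. KO replicate 2 lay below KO+DNMT3A replicate 1. The 10 fibroblast and stellate genes summed to 390 and 197 FPKM in the KO+DNMT3A pair, 352 and 470 FPKM in the KO pair, and 1182 and 287 FPKM in the WT pair. Duct genes, 10 in all, summed to 1646 and 420 FPKM in the KO+DNMT3A pair, 570 and 338 FPKM in the KO pair, and 2878 and 459 FPKM in the WT pair. WT replicate 1, the library with the highest value of 5 members, thus also had the highest stromal and duct sums. Its duct sum rested largely on Spp1 (1510 FPKM) and Mmp7 (639 FPKM). Of the 10 duct genes only 3 were highest in it, and 6 were highest in KO+DNMT3A replicate 1. The part of stromal and duct cells in the results was not tested. The medians of beta cell genes were opposite in sign to those of the members in both KO+DNMT3A comparisons: all 10 had a log2 fold change above 0 in KO+DNMT3A against KO (median 1.10) and against WT (median 1.32). Only 1 and 0 of them were higher without overlap, where 17.2% and 19.2% of all genes were. Their sum was 124621 and 152260 FPKM in the KO+DNMT3A pair, 218236 and 1684 FPKM in the KO pair, and 1583 and 166400 FPKM in the WT pair, so the low values were those of the insulin-poor libraries. Of 8 acinar genes 1 met the threshold, the elastase gene Cela1, at 4.72 and 4.06 FPKM in the KO+DNMT3A pair and 5.72 and 10.5 FPKM in the KO pair, and listed at 0 in both WT libraries (limma adjusted p of 1 for KO against WT and 0.997 for KO+DNMT3A against WT). In these comparisons 9.36% and 19.2% of all genes were higher without overlap. Ctrb1, an acinar gene below the threshold, went the other way, at 4.63 FPKM in WT replicate 2 and listed at 0 in every other library. The part of beta and acinar cells in the member values was not tested either.

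Macrophage RNA was lower in both KO+DNMT3A libraries than in the other 4. The 10 macrophage genes summed to 238 and 160 FPKM in the KO+DNMT3A pair, 517 and 327 FPKM in the KO pair, and 541 and 510 FPKM in the WT pair. All 10 had a log2 fold change below 0 in KO+DNMT3A against KO (median -1.06) and against WT (median -1.49), and 7 and 8 of them did not overlap, where 5.43% and 7.87% of all genes were lower without overlap; limma called none (smallest adjusted p of 1 and 0.997). Macrophages are also known to express Pecam1 and Eng, and their part in the values of both genes was not tested. Platelets also carry CD31, and their genes were highest in different libraries. Pf4 was 11.9 and 1.98 FPKM in the KO+DNMT3A pair, 5.16 and 0 FPKM in the KO pair, and 36.1 and 5.29 FPKM in the WT pair, highest in WT replicate 1 as Pecam1 was. Gp1bb was 1.46 and 18 FPKM in the KO+DNMT3A pair, 10.4 and 14.9 FPKM in the KO pair, and 3.28 and 9.89 FPKM in the WT pair. Itga2b was 0.128 and 1.32 FPKM in the KO+DNMT3A pair, 0.0864 and 0.631 FPKM in the KO pair, and 0 in both WT libraries. Both were highest in KO+DNMT3A replicate 2, and Ppbp and Gp9 were listed at 0 throughout.

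Of 6 lymphatic genes 3 met the threshold. Prox1, a transcription factor of lymphatic endothelium that islet endocrine cells also express, was 5.13 and 7.67 FPKM in the KO+DNMT3A pair, 4.14 and 4.29 FPKM in the KO pair, and 1.61 and 4.45 FPKM in the WT pair. Both KO+DNMT3A values lay above the other 4, with a log2 fold change of 0.48 ± 0.57 against KO and 0.95 ± 0.57 against WT (limma adjusted p of 1 and 0.997), where 17.2% and 19.2% of all genes were higher without overlap. Pdpn, which encodes podoplanin, was 7.67 and 0.824 FPKM in the KO+DNMT3A pair, 0.968 and 2.95 FPKM in the KO pair, and 18.8 and 1.89 FPKM in the WT pair. Lyve1 was 1.4 and 2.75 FPKM in the KO+DNMT3A pair, 2.15 and 0 FPKM in the KO pair, and 0 and 1.58 FPKM in the WT pair. The groups overlapped for Pdpn and Lyve1.

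**Figure D5:**
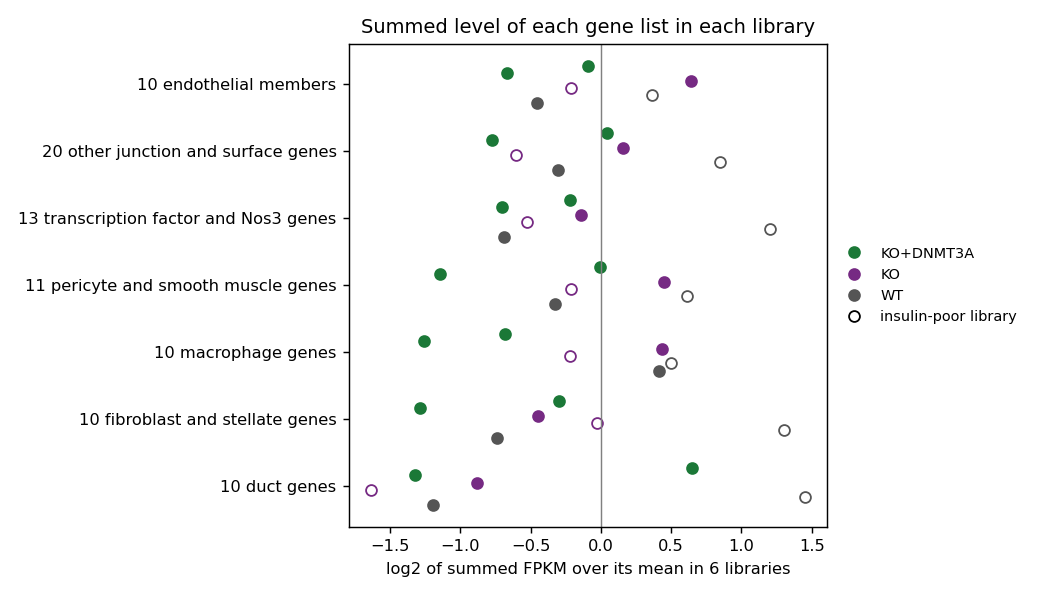
Summed FPKM of 7 gene lists in each library, as log2 of the sum over its mean in the 6 libraries (horizontal axis), with KO+DNMT3A, KO and WT in green, purple and grey and insulin-poor libraries as open circles. In summed FPKM the endothelial members are highest in KO replicate 1, at 62.8 FPKM, and each of the other 6 lists in WT replicate 1; in fragments per 1000000 the members have 247 in KO replicate 1 and are highest in WT replicate 1, at 311.

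The genes most like the members were found by the correlation of their log2(FPKM + 1) with the mean log2(FPKM + 1) of the 10 members over the 6 libraries, among 4655 genes above 0 in all 6 and averaging at least 5 FPKM. The nearest 8 were Crip1 (r = 0.99), Ccny (0.98), Gng11 (0.97), Txn2 (0.96), Ppie (0.93), Pomp (0.92), Ctsc (0.91) and Rab9 (0.90). Gng11 was 55.5 and 24.3 FPKM in the KO+DNMT3A pair, 96.1 and 32.1 FPKM in the KO pair, and 116 and 26.8 FPKM in the WT pair. Its high libraries were KO+DNMT3A replicate 1, KO replicate 1 and WT replicate 1, the same 3 in which the members summed highest. These are the 8 nearest of 4655 over 6 points that share depth and composition, and no test was made of them.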

How the data were processed

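RNA of 6 islet libraries was read from poly-A selected TruSeq libraries, per the labels' protocols. The authors deposited 1 table, whose values are FPKM by the names of its columns. Per the submitters' processing notes, the build was mm10 and the tools were StringTie 1.3.0, edgeR and HISAT2 2.0.4, with no role or order given; no count files were used here. Of 34745 gene IDs, 34267 matched a symbol and 478 did not; GENCODE annotation of GRCm38 gave positions.

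The main test was limma 3.58.1 (R 4.3.3) on log2(FPKM + 1), with a trended robust prior, all 6 libraries in 1 fit, genes of at least 1 FPKM in at least 2 libraries, and Benjamini-Hochberg adjustment per comparison at 0.05; it was tested on simulated data. Library sizes were inferred from the smallest steps of FPKM in genes with 1 transcript, where 84.4% to 91.7% of values up to 20 fragments were whole within 0.01. Whole fragments per gene came from the length that made all 6 values whole, which 97.4% of 11353 genes allowed; for Tek, with 2 fragments in each of 2 libraries, 1 fragment would do as well with a shorter length. Intervals are exact at 95%. Motifs and tables were computed in Python 3.11.15.

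The main fit did not pair samples by replicate number. Deviations of same-numbered libraries correlated at 0.32 (KO+DNMT3A and KO), 0.10 (KO+DNMT3A and WT) and -0.27 (KO and WT). With 2 libraries a group, and the insulin-poor libraries among them, these values cannot decide whether samples were paired. The deposited column names carry other numbers, by which KO+DNMT3A replicate 2, KO replicate 2 and WT replicate 1 share a number. The crossed replicate block follows that numbering for these libraries only. It also blocks the remaining libraries together, although their column names share no number. Alternatives changed the pseudocount, filter, scaling, prior, groups in the fit, replicate block and libraries kept. A limma voom fit of the whole fragments and a crossed replicate block were chosen after seeing the data. The members and lists were chosen with earlier results of these data known. Named were all members, Vegfa, Rptor, Dnmt3a, up to 4 genes of a list with the smallest unadjusted p per comparison, and the 8 genes most like the members. Cldn5, Angpt1, Angpt2, Gdf2, Bmp10, Id1, Itga2b, Sele, Selp and the blood cell genes listed at 0 were named for their role after their values were seen. Ctrb1 was named for its value.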

Additional observations from a re-analysis of the deposited data

How the results depend on the processing

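No member and no other gene was called by limma under any alternative run. Each kind of result had its own rule for staying the same. A median had to move by less than the median SE of the members, and a sum by less than the SD of its 2 replicates. Counts of calls were 0 throughout and so were the same in every alternative. By these rules 171 of 174 alternatives for the counts of calls, the member medians and the summed level were the same. The 3 others were member medians: KO against WT came to 0.67 without both insulin-poor libraries, which leaves 1 library in each of these groups and takes the spread from KO+DNMT3A. The other 2 left out WT replicate 2, which leaves the library of fewest fragments as the only WT library, assumed to vary like the other groups; the cause was not tested. With 1 library left out in turn, medians ran from -0.59 to 0.02 for KO+DNMT3A against KO, from -0.61 to 0.57 for KO against WT and from -1.02 to 0.16 for KO+DNMT3A against WT. Single members changed sign in 40 of 420 alternatives. The 174 and the 420 include alternatives whose outcome was fixed in advance. Fold changes could not move with either replicate block, without a trend in the prior or with only the groups compared. Nor could they when the library left out belonged to the third group. By design the replicate block kept the medians at -0.36, 0.02 and -0.27, since each group holds both replicate numbers. It called 0 genes, with 154, 285 and 391 at an unadjusted p under 0.05. With the crossed block (WT numbers exchanged) these were 203, 357 and 717, and again 0 were called. Limma voom on whole fragments called 0 of 13176 genes in each comparison, with 202, 150 and 281 at an unadjusted p under 0.05 and no member among them. Depth limits Tek, Tie1 and every value of WT replicate 1, where the 10 members together held 76 fragments.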
